A study of Mus musculus with 7 samples.

Results

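The transcripts of the phagocyte oxidase and of companion antimicrobial enzymes were followed in microglia, the resident macrophages of the brain, taken from mice with glioma. The set was chosen by gene symbol and holds 7 of the 24537 genes in the deposited table. It comprises the oxidase genes Cybb, Cyba, Ncf1, Ncf4 and Rac2, and the enzyme genes Nos2 and Acod1. All 7 symbols had a row.

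Every mouse was C57BL/6 and carried the 005 glioma, a mouse glioblastoma model in which tumour cells are implanted in the brain. Cells with intermediate CD45 and positive for the fractalkine receptor CX3CR1 were sorted at day 35 after implantation, and RNA was sequenced from an ultra-low input. The groups were CD4 depletion plus anti-CTLA4 (n = 3 libraries), anti-CTLA4 alone (n = 2) and control IgG (n = 2); CTLA4 is a checkpoint receptor of T cells. The comparisons asked how microglial transcripts differed under the checkpoint antibody, and how they differed when CD4 T cells were depleted as well. No group had CD4 depletion without anti-CTLA4. An effect of depletion by itself therefore cannot be told apart from a need for these cells under the antibody. The labels give neither sex nor age. Whether the replicates are different animals is not stated either, and the p-values therefore reflect only library-to-library spread, part or all of which could be technical.

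The identity of 1 group is uncertain. In the table's header, numbers 29 and 30 of the sample sheet stand beside the anti-CTLA4 names, yet the header's command assigns 29 and 30 to interferon-gamma receptor knockout libraries and, like the sample descriptions, assigns 10 and 11 to anti-CTLA4. These columns are called the libraries labelled anti-CTLA4, and every direction in a comparison with them depends on that reading. Ifngr1, the ligand-binding chain of the interferon-gamma receptor, stood at 204 and 271 FPKM in the libraries labelled anti-CTLA4, against 143 and 107 FPKM in IgG. FPKM are fragment numbers divided by the length of the transcript and the depth of the library, so levels of different genes can be compared. The part of the receptor that the knockout alters is not given in the sources used here.

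From the steps between the lowest values, 49900000 to 61900000 reads per library lay in genes. Replicate 1 of the CD4 depletion group stood apart from the other 6 libraries. The summed level of 14 monocyte and macrophage markers was 3520 FPKM there, against 134 to 1115 FPKM in the other libraries. Lyz2 was the largest part of that sum, at 1692 FPKM there and 977 FPKM in replicate 1 labelled anti-CTLA4. Ly6c2, on that list, was at 8.43 and 3.38 FPKM in the libraries labelled anti-CTLA4, against 0.447 and 0.553 FPKM in IgG. Vcan went the other way, at 1.53 and 0.416 FPKM against 7.34 and 9.51 FPKM, and Ccr2 overlapped. The summed level of 14 neutrophil markers in replicate 1 of the CD4 depletion group was 566 FPKM, against 37.2 to 185 FPKM, although Ly6g, a surface marker of neutrophils, was at 0.101 FPKM. S100a8 and S100a9 made up most of that sum, at 227 and 203 FPKM. That of 26 microglia markers, such as P2ry12 and Tmem119, was lowest there. Microglia markers summed to 14410 to 20850 FPKM under CD4 depletion, to 32880 and 42390 FPKM in the libraries labelled anti-CTLA4 and to 18800 and 17570 FPKM in IgG. In bulk RNA, fewer cells of a type and less RNA per cell cannot be told apart. Markers of tumour and oligodendrocyte precursor-like cells (21 genes) summed to 243, 819 and 627 FPKM under CD4 depletion, to 127 and 53.1 FPKM in the libraries labelled anti-CTLA4 and to 981 and 1365 FPKM in IgG. No list was at 0 in every library. Among Y-linked genes, Eif2s3y was at 6.86, 4.92 and 4.34 FPKM under depletion, at 1.06 and 0.335 FPKM in the libraries labelled anti-CTLA4 and at 0.896 and 0.947 FPKM in IgG. Ddx3y and Uty were likewise higher in every depletion library, while Kdm5d overlapped, at 0.663, 1.88 and 1.08 FPKM under depletion, 0.596 and 0 FPKM in the libraries labelled anti-CTLA4 and 0.746 and 0.061 FPKM in IgG. Xist, which is expressed from the inactive X chromosome of females, was at 3.42, 2.55 and 2.42 FPKM under depletion, at 3.85 and 6.08 FPKM in the libraries labelled anti-CTLA4 and at 2.16 and 2.48 FPKM in IgG, so it was not lower under depletion than in IgG. The part of sex in the members' values was not tested.

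The phagocyte oxidase is an enzyme complex that passes electrons from NADPH across a membrane onto oxygen and makes superoxide, from which other reactive oxygen species form. Its membrane core, cytochrome b558, pairs the catalytic subunit gp91phox (Cybb, also called NOX2) with p22phox (Cyba), and becomes active when cytosolic subunits, among them p47phox (Ncf1) and p40phox (Ncf4), join it together with a Rac GTPase. Inherited loss of a subunit causes chronic granulomatous disease in people, and in brain the oxidase of microglia is a known source of superoxide. Nos2 encodes inducible nitric oxide synthase, which makes nitric oxide from arginine, and Acod1 (also called Irg1) makes itaconate from the citrate cycle intermediate cis-aconitate; both genes are induced in mouse macrophages by interferon-gamma and bacterial products.

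The start regions of 4 of the 7 members, Cybb, Cyba, Ncf1 and Acod1, were in the RefSeq promoter table, from 250 bases before to 50 bases after the start of the gene. They were searched on both strands for GAGGAA (the core of sites for PU.1, the product of Spi1), for TTCNNNGAA (the interferon-gamma activated sequence, GAS) and for GAAANNGAAA (the core of the interferon-stimulated response element, ISRE, bound by IRF proteins). Of all 32817 promoter windows of that length, 28.3% held GAGGAA, 8.29% the GAS and 3.43% the ISRE core. The 3 windows with a match are printed 5′ to 3′ on the strand of the gene (GRCm38.p6), with matches in capitals, because genes of factors that bind the PU.1 and ISRE motifs are measured beside the members further on. The Cyba window held none of these letters.
Cybb promoter, chrX:9469275-9469574, − strand: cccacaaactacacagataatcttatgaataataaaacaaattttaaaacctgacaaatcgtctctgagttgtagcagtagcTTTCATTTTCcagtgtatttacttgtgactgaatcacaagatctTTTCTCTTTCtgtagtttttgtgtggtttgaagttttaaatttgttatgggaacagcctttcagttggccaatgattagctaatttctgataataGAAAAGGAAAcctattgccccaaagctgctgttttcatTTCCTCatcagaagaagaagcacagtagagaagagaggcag
Ncf1 promoter, chr5:134229576-134229875, − strand: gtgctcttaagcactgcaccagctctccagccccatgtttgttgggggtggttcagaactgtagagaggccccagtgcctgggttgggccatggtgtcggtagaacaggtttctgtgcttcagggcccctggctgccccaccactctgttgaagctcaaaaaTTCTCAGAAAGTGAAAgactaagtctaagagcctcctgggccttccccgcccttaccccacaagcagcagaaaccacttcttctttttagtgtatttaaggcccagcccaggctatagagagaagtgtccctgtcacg
Acod1 promoter, chr14:103046762-103047061, + strand: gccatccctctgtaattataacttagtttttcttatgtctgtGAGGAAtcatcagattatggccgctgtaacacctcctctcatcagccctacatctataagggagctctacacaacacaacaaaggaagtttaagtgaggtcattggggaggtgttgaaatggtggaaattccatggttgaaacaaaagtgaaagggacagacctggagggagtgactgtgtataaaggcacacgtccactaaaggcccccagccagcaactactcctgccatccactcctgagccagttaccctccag
In the Cybb window the first 3 capital runs are ISRE cores, at bases −168 to −159, −124 to −115 and −29 to −20 from the start, and the last is GAGGAA on the other strand at bases 9 to 14. In the Ncf1 window a GAS at bases −88 to −80 overlaps an ISRE core at −82 to −73, so its capitals form 1 run. In the Acod1 window the capitals mark GAGGAA at −208 to −203. A match describes letters only and does not show binding.

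The catalytic core came first. Cybb lies on chromosome X from 9435254 to 9469324 (mm10, minus strand) in 13 exons. It stood at 27.6, 3.46 and 8.22 FPKM under CD4 depletion, at 29.6 and 15.0 FPKM in the libraries labelled anti-CTLA4 and at 1.95 and 9.51 FPKM in IgG. Both libraries labelled anti-CTLA4 were above both IgG libraries, while the depletion group spread over nearly the whole range, with replicate 1 next to the highest library. Cyba, the partner of Cybb on chromosome 8 from 122424771 to 122432940 (minus strand, 6 exons), was the most abundant member. It stood at 379, 179 and 222 FPKM under CD4 depletion, at 559 and 405 FPKM in the libraries labelled anti-CTLA4 and at 150 and 199 FPKM in IgG. The libraries labelled anti-CTLA4 lay above every other library for this gene.

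Among the cytosolic subunits, Ncf1 is the organiser that bridges the cytosolic complex to p22phox. It lies on chromosome 5 from 134220259 to 134229625 (minus strand, 11 exons). Its level was 77.9, 49.1 and 60.9 FPKM under CD4 depletion, 101 and 123 FPKM in the libraries labelled anti-CTLA4, and 44.4 and 51.0 FPKM in IgG. Again the libraries labelled anti-CTLA4 lay above the other 5. In the GENCODE annotation of GRCm38, transcripts of Gtf2ird2 on the plus strand share 282 bases with the exons of Ncf1, and reads on both strands were counted, so reads in these bases cannot be assigned to 1 gene. The row of Gtf2ird2 stood between 2.30 and 3.67 FPKM in all 7 libraries, far below Ncf1.

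Ncf4, whose product p40phox binds a phosphoinositide of the phagosome membrane, lies on chromosome 15 from 78244811 to 78262580 (plus strand, 10 exons). It stood at 50.5, 15.2 and 27.5 FPKM under CD4 depletion, at 33.7 and 35.0 FPKM in the libraries labelled anti-CTLA4 and at 14.2 and 20.2 FPKM in IgG. The highest library was replicate 1 of the depletion group. Rac2, the Rac GTPase restricted to blood cells, lies on the same chromosome from 78559169 to 78572783 (minus strand, 7 exons). Its values were 43.6, 15.2 and 21.3 FPKM under CD4 depletion, 40.7 and 33.5 FPKM in the libraries labelled anti-CTLA4, and 11 and 19.4 FPKM in IgG. Here too replicate 1 of the depletion group was highest, and its other libraries lay near IgG.

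The enzymes were scarcer. Acod1, on chromosome 14 from 103047012 to 103056573 (plus strand, 5 exons), stood at 5.72, 0.698 and 1.84 FPKM under CD4 depletion, at 12.9 and 8.68 FPKM in the libraries labelled anti-CTLA4 and at 0.431 and 2.15 FPKM in IgG. Both libraries labelled anti-CTLA4 were above the rest, followed by replicate 1 of the depletion group. Nos2, on chromosome 11 from 78925291 to 78960226 (plus strand, 26 exons), was the scarcest member, at 3.50, 0.012 and 0.107 FPKM under CD4 depletion, 0.410 and 0.928 FPKM in the libraries labelled anti-CTLA4, and 0.250 and 0.185 FPKM in IgG. At the implied depth these levels correspond to 1424 reads in replicate 1 of the depletion group (exact Poisson 95% interval, counting error only, 1351 to 1500), to 4 reads in replicate 2 (1.09 to 10.2) and to 38 to 317 reads in the other 5 libraries.

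**Figure D1:**
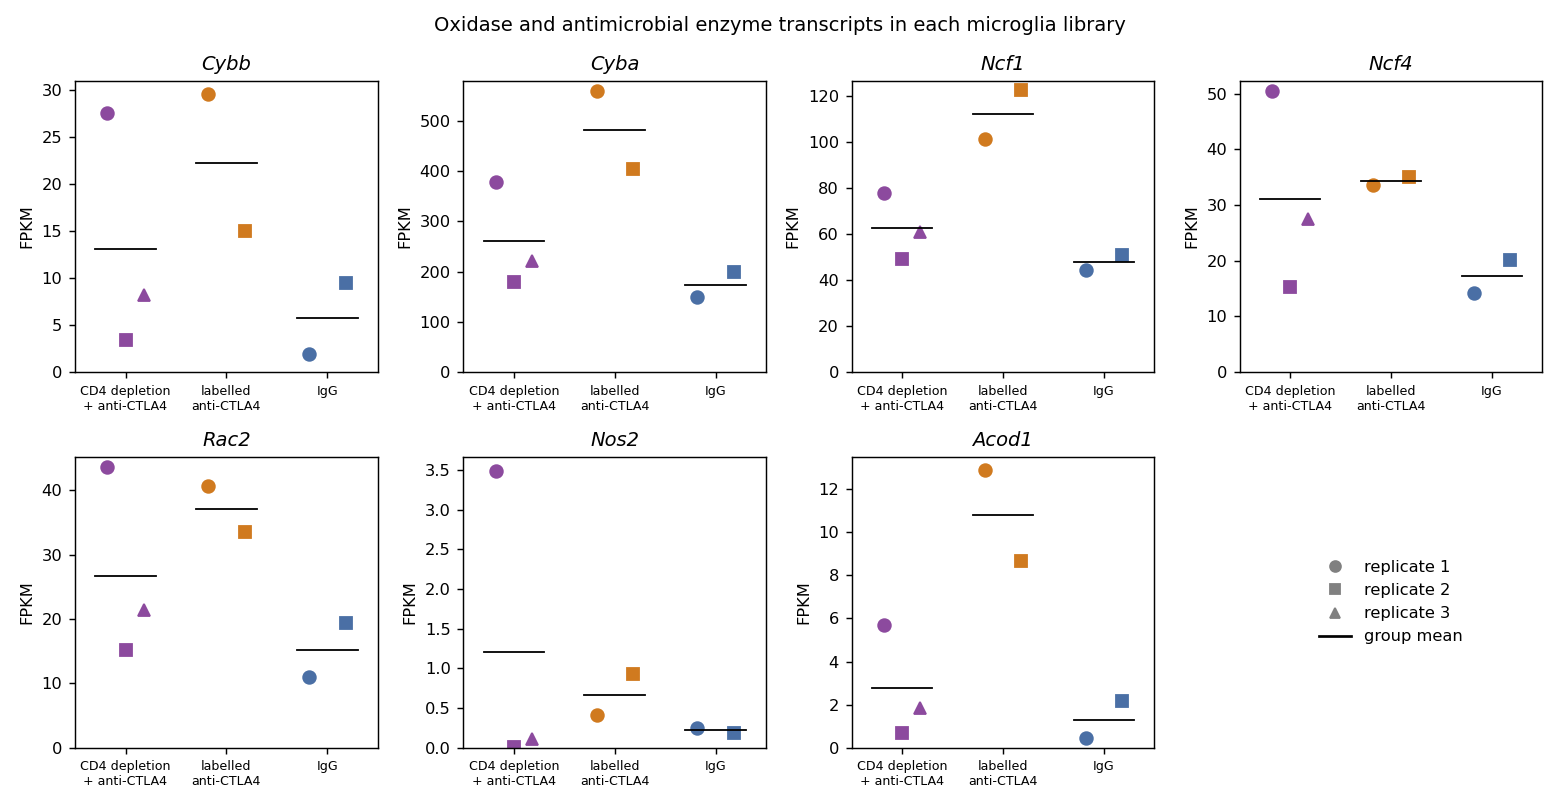
Level of each of the 7 genes in FPKM (vertical axes start at 0 and differ between panels) in the 3 groups; each symbol is 1 library and the bar is the group mean. The libraries labelled anti-CTLA4 lie above IgG in all 7 panels, and replicate 1 of the CD4 depletion group lies above replicates 2 and 3 in all 7.

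By group, Cyba averaged 260 ± 105 FPKM under CD4 depletion (SD, n = 3), 482 ± 109 FPKM in the libraries labelled anti-CTLA4 (SD, n = 2) and 174 ± 34.7 FPKM in IgG (SD, n = 2). Ncf1 averaged 62.7 ± 14.5 FPKM under depletion, 112 ± 15.0 FPKM in the libraries labelled anti-CTLA4 and 47.7 ± 4.65 FPKM in IgG, with the same n throughout. Ncf4 averaged 31.0 ± 17.9 FPKM under depletion, 34.3 ± 0.938 FPKM in the libraries labelled anti-CTLA4 and 17.2 ± 4.25 FPKM in IgG, and Rac2 26.7 ± 14.9 FPKM under depletion, 37.1 ± 5.07 FPKM in the libraries labelled anti-CTLA4 and 15.2 ± 5.96 FPKM in IgG. Cybb averaged 13.1 ± 12.8 FPKM under depletion, 22.3 ± 10.3 FPKM in the libraries labelled anti-CTLA4 and 5.73 ± 5.34 FPKM in IgG. Acod1 averaged 2.75 ± 2.63 FPKM under depletion, 10.8 ± 2.97 FPKM in the libraries labelled anti-CTLA4 and 1.29 ± 1.22 FPKM in IgG. The mean level put Cyba at rank 81 of the 13028 genes tested, Ncf1 at 584, Ncf4 at 1959, Rac2 at 2087, Cybb at 4144 and Acod1 at 8196. Ncf4 and Rac2 are neighbours in that order, and their group means differed by less than the larger of their SDs in all 3 groups. The order of levels Cyba, Ncf1, Ncf4 or Rac2, Cybb, Acod1 and Nos2, from high to low, held within each of the 7 libraries.

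Replicates agreed best for Ncf1 and worst for Cybb. The pooled spread within groups, as an SD of log2(FPKM + 1), was 0.26 for Ncf1, 0.45 for Cyba, 0.60 for Rac2, 0.61 for Ncf4, 0.84 for Acod1, 0.87 for Nos2 and 1.20 for Cybb, against a median of 0.23 over tested genes. For Cybb, 99.2% of tested genes had a smaller spread. In the depletion group replicate 1 exceeded the mean of replicates 2 and 3 by 1.42-fold for Ncf1, 1.89-fold for Cyba, 2.37-fold for Ncf4, 2.39-fold for Rac2, 4.50-fold for Acod1 and 4.73-fold for Cybb. The corresponding ratio for Nos2 was 58.7, with 4 and 38 reads in replicates 2 and 3. In the same library Ccr2, the chemokine receptor of monocytes, was at 43.1 FPKM, against 1.02 and 1.30 FPKM in replicates 2 and 3, and S100a8, a calcium-binding protein abundant in neutrophils, was at 227 FPKM, against 4.57 and 13.4 FPKM. Within the depletion group most of the neutrophil list was likewise highest there, such as Retnlg, at 33.3 FPKM against 0.341 and 1.54 FPKM. Not all of it was: Ngp was at 4.23 FPKM, against 0.988 and 6.14 FPKM in replicates 2 and 3. Csf3r, also on that list, was at 38.6 FPKM, against 36.0 and 40.6 FPKM. Over all libraries S100a8 and Retnlg were highest in replicate 1 of the depletion group. Camp, Ltf and Ngp were instead highest in replicate 2 of the libraries labelled anti-CTLA4, at 8.19, 3.83 and 14.5 FPKM. The part of cells other than microglia in the members' levels was not tested.

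In the libraries labelled anti-CTLA4, every one of the 7 members lay above both IgG libraries without overlap. By that measure 22.8% of tested genes were higher. The 3 comparisons were tested in 1 fit across the table, limma on log2(FPKM + 1) with Benjamini-Hochberg adjustment over 13028 genes and a threshold of 0.05; 6 members entered it, since Nos2 reached 1 FPKM in only 1 library. Of these, Cyba, Ncf1 and Acod1 rose, against a background of 9.29% of tested genes called higher, and Cybb, Ncf4 and Rac2 did not pass. An exact two-sided permutation test of 2 against 2 libraries cannot go below 0.333, so no such test was used.

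Acod1 had the highest estimate of the 6, 2.45 on the log2 scale with an SE of 0.64 (limma adjusted p = 0.0241), in the libraries labelled anti-CTLA4 over IgG. Cyba rose by 1.46 (SE 0.37, limma adjusted p = 0.0229), and Ncf1 by 1.21 (SE 0.24, limma adjusted p = 0.0119) with the narrowest error. For Cybb the estimate was 1.99, with an SE of 0.90 and a limma adjusted p of 0.114, beside IgG libraries that differed from each other by nearly as much as the groups. Rac2 had 1.28 (SE 0.46, limma adjusted p = 0.063) and Ncf4 0.98 (SE 0.47, limma adjusted p = 0.135). The median over the 6 members was 1.37 on the log2 scale, against -0.31 over all tested genes. Without replicate 1 of the libraries labelled anti-CTLA4 only Ncf1 among the members passed, and without replicate 2 of them, or without either IgG library, 0 members passed. Without replicate 2 of them or without IgG replicate 1, 0 of the 13028 genes passed, which covers every gene named for this comparison. After scaling to the 26 microglia markers, which themselves were higher in these libraries (12 of 26 passed), 0 members passed, Ncf4 turned to -0.02, and the median of all tested genes moved to -1.31. The part of the markers' difference in the members' values was not tested otherwise.

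Under CD4 depletion plus anti-CTLA4, Cyba, Ncf1 and Acod1 lay below the libraries labelled anti-CTLA4 without overlap (15.7% of tested genes did so), and the other 4 members overlapped. Ncf1 and Acod1 fell, against a background of 6.59% of tested genes called lower. The log2 fold change of Ncf1 was -0.85 (SE 0.22, limma adjusted p = 0.0281) and that of Acod1 was -1.86 (SE 0.58, limma adjusted p = 0.0488). Cyba had -0.94 and missed the threshold (limma adjusted p = 0.0721), and Cybb had -1.07, Rac2 -0.59 and Ncf4 -0.30, with limma adjusted p-values of 0.339, 0.309 and 0.613. The members' median was -0.89, against 0.27 over all tested genes, and an exact two-sided permutation test of 3 against 2 libraries could reach no less than 0.2. After scaling to the microglia markers, which were themselves lower (11 of 26 passed), no member passed and the signs of Cyba, Ncf1, Ncf4 and Rac2 turned, to 0.02, 0.12, 0.67 and 0.38.

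The count in this comparison was higher without replicate 1 of the depletion group. With that library left out, all 7 members lay below both libraries labelled anti-CTLA4 (20.7% of tested genes did so), and Cyba, Ncf1, Rac2 and Acod1 fell, against a background of 8.89% of tested genes called lower. The log2 fold changes were then -1.25 for Cyba (SE 0.26, limma adjusted p = 0.0101), -1.01 for Ncf1, -0.997 for Rac2 and -2.40 for Acod1 (SE 0.42, limma adjusted p = 0.00658). Cybb stood at -1.79 and Ncf4 at -0.72, with limma adjusted p-values of 0.0574 and 0.080. Without replicate 2 or 3 of the depletion group, or without either library labelled anti-CTLA4, 0 members passed. Without replicate 2 of the libraries labelled anti-CTLA4, 0 of the 13028 genes passed in this comparison.

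Between CD4 depletion plus anti-CTLA4 and IgG, all 7 members overlapped (27.2% of tested genes did not overlap in 1 direction or the other). The 6 tested members had log2 fold changes of 0.37 for Ncf1 to 0.92 for Cybb, with limma adjusted p-values from 0.710 to 0.795, and 0 passed; 0% of tested genes did, and 0 members had an unadjusted p under 0.05, against 851 of 13028 genes. The intervals were wide: for Cybb the 95% interval of the log2 fold change ran from -0.99 to 2.84, and for Ncf1 from -0.14 to 0.87. Without replicate 1 of the depletion group the estimates were 0.05 for Acod1, 0.20 for Ncf1, 0.20 for Cybb, 0.21 for Cyba, 0.26 for Ncf4 and 0.28 for Rac2. Each pair of comparisons shares 1 group of libraries, so their results are not independent.

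**Figure D2:**
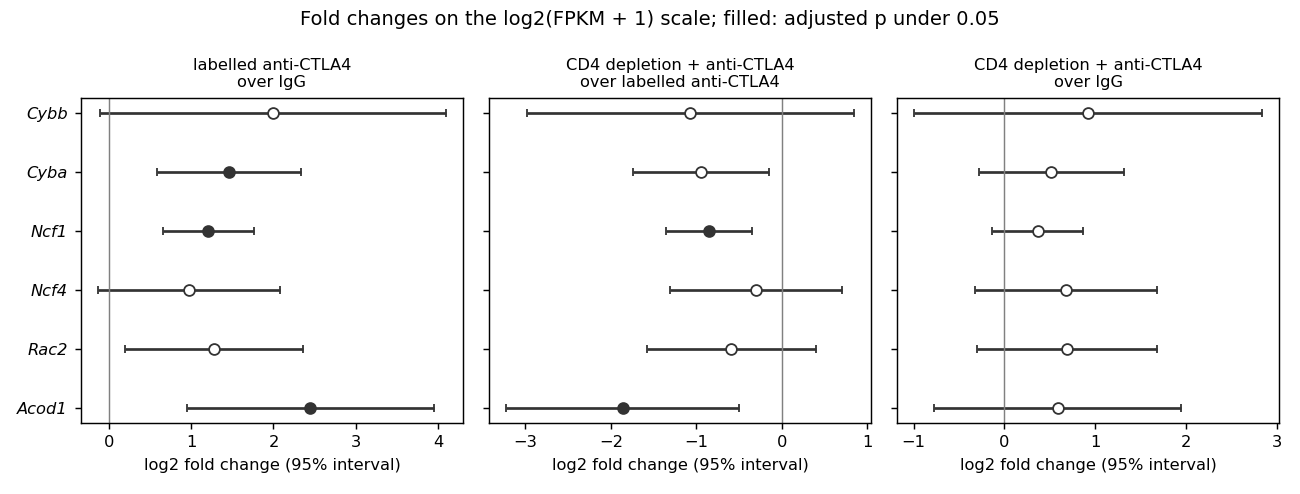
Log2 fold change with its 95% interval from limma for the 6 tested members in the 3 comparisons, on separate horizontal axes; filled circles have an adjusted p under 0.05. Acod1 and Ncf1 are filled in the first 2 panels and Cyba in the first, and every interval of the right panel crosses 0.

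The order of the libraries was nearly the same for the oxidase genes. For Cyba, Ncf1, Ncf4 and Rac2 the lowest 4 libraries came in 1 order: replicate 3 of the depletion group, IgG replicate 2, depletion replicate 2 and IgG replicate 1. The highest 3 were always the libraries labelled anti-CTLA4 and depletion replicate 1. For Cybb and Acod1, IgG replicate 2 moved above depletion replicate 3, and IgG replicate 1 was again lowest. Nos2 was the exception, with both IgG libraries above depletion replicates 2 and 3. As a description over the 7 libraries, the root mean square difference between centred log2 profiles was 0.20 for Ncf4 and Rac2, 0.21 for Cyba and Rac2, 0.26 for Cyba and Ncf1 and 0.44 for Cybb and Acod1.

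**Figure D3:**
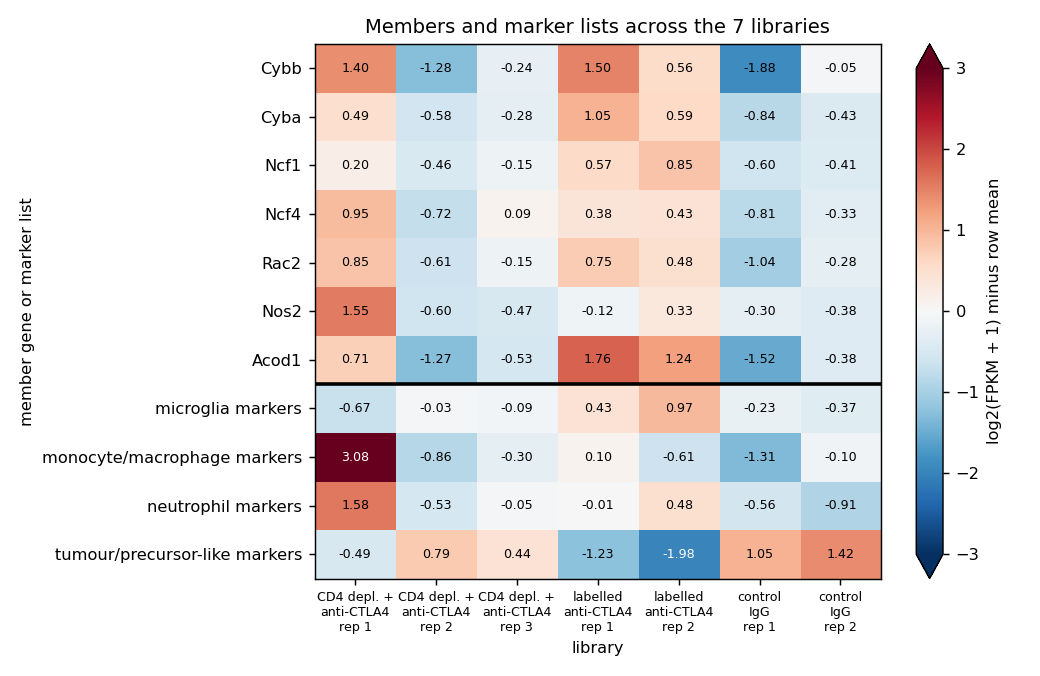
Log2(FPKM + 1) minus the row mean for the 7 genes (above the line) and for the mean of each marker list (below it) in each library; red is above and blue below the row mean. The monocyte and macrophage list reaches 3.08 in replicate 1 of the CD4 depletion group, where all 7 genes are also above their means, and the microglia list is at -0.67 there.

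The balance between partners differed from library to library. Cyba exceeded Cybb by 13.8, 51.8 and 27.0 times under CD4 depletion, by 18.9 and 27.0 times in the libraries labelled anti-CTLA4 and by 76.9 and 20.9 times in IgG. That ratio was lowest in depletion replicate 1 and highest in IgG replicate 1, and the groups overlapped. Ncf1 exceeded Ncf4 by 1.54, 3.23 and 2.22 times under depletion, by 3.01 and 3.50 times in the libraries labelled anti-CTLA4 and by 3.12 and 2.52 times in IgG, with depletion replicate 1 lowest.

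Rac1, the ubiquitous GTPase that can also serve the oxidase, passed in no comparison. It stood at 192, 188 and 165 FPKM under CD4 depletion, at 176 and 180 FPKM in the libraries labelled anti-CTLA4 and at 203 FPKM in both IgG libraries. Its log2 fold change in the libraries labelled anti-CTLA4 over IgG was -0.19 (SE 0.17, limma adjusted p = 0.399). Rac1 exceeded Rac2 by 4.40, 12.4 and 7.71 times under depletion, by 4.33 and 5.38 times in the libraries labelled anti-CTLA4 and by 18.5 and 10.5 times in IgG. Both libraries labelled anti-CTLA4 were thus below both IgG libraries in this ratio. The summed tumour and precursor-like markers were also lower there, at 127 and 53.1 FPKM against 981 and 1365 FPKM in IgG. Their part in the ratio was not tested.

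**Figure D4:**
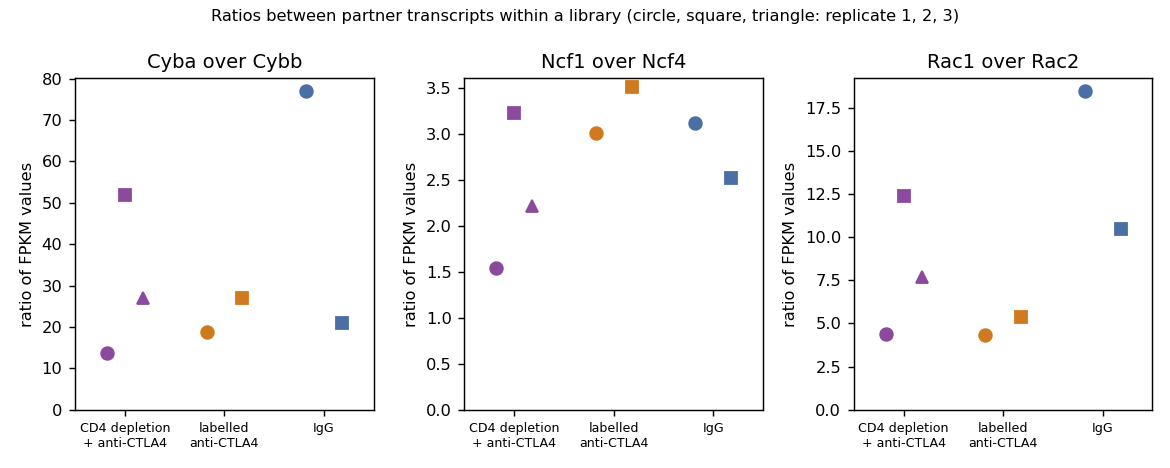
Ratios of FPKM values within each library for Cyba over Cybb, Ncf1 over Ncf4 and Rac1 over Rac2 (vertical axes start at 0 and differ between panels); each symbol is 1 library. Rac1 over Rac2 is 4.33 and 5.38 in the libraries labelled anti-CTLA4, below both IgG libraries at 18.5 and 10.5. The groups overlap for Cyba over Cybb and for Ncf1 over Ncf4. The part of other cells in these ratios was not tested.

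Of a list of oxidase relatives and regulators, 18 of 19 genes had a row and 11 were tested. As background for this list and those below, 1210 of all 13028 tested genes rose and 3747 fell in the libraries labelled anti-CTLA4 over IgG. Under depletion over those libraries, 2969 rose and 858 fell. After scaling to microglia markers 43 rose and 9233 fell in the former comparison, and 9791 rose and 62 fell in the latter. In the libraries labelled anti-CTLA4 over IgG, 6 of the 11 rose and 1 fell, with a median of 0.88, while after scaling to microglia markers 0 rose, 4 fell and the median was -0.12. Vav1, an exchange factor that activates Rac, rose by 1.24 (SE 0.19, limma adjusted p = 0.00967), Prkcd, a kinase that phosphorylates p47phox, by 1.24 (limma adjusted p = 0.0133) and Hvcn1, the proton channel that balances the charge moved by the oxidase, by 1.17 (limma adjusted p = 0.0125). Nox1, a related oxidase of the gut, fell to 0.579 and 0.588 FPKM in the libraries labelled anti-CTLA4, against 2.43 and 2.73 FPKM in IgG. Nox1 moved in the direction of the summed tumour and precursor-like markers, whose part was not tested. Under depletion over the libraries labelled anti-CTLA4, 3 of the 11 fell and 1 rose, with a median of -0.52 (0.44 after marker scaling, with 0 lower). On the log2 scale Hvcn1 had -1.15, Prkcd -0.91, Vav1 -0.85 and Nox1 0.77.

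Around Nos2, 13 of the 14 genes of arginine, nitric oxide and tetrahydrobiopterin (the cofactor of the synthase) were tested. In the libraries labelled anti-CTLA4 over IgG 3 fell and 1 rose, with a median of -0.40. Of all 13028 tested genes 3747 fell there, with a median of -0.31. Ddah1 and Ddah2, which degrade inhibitors of nitric oxide synthases, fell by 2.72 and 1.74 on the log2 scale (limma adjusted p = 0.0117 and 0.0176). Ddah1 was at 7.26 and 2.72 FPKM in those libraries, against 28.5 and 44.1 FPKM in IgG, and moved with the summed markers of tumour and precursor-like cells given above; their part was not tested. Spr, the last enzyme of tetrahydrobiopterin synthesis, fell by 0.63, and Nos3, the endothelial synthase, rose by 0.79 (limma adjusted p = 0.026 and 0.0422). Beside Nos3, 14 endothelial and mural markers summed to 425 and 234 FPKM in the libraries labelled anti-CTLA4, against 33.4 and 42.8 FPKM in IgG. Matrix genes such as Dcn, at 137 and 73.7 FPKM against 3.61 and 7.33 FPKM, weighed heavily in that sum. Among endothelial genes of the list, Cldn5 was at 18.4 and 13.2 FPKM against 4.47 and 5.14 FPKM. Pecam1 was at 4.99 and 7.11 FPKM against 2.52 and 4.35 FPKM, and Flt1 at 1.60 and 1.99 FPKM against 2.63 and 2.00 FPKM. The part of these markers was not tested. Under depletion over the libraries labelled anti-CTLA4, Ddah1 and Spr rose and Pts, another enzyme of the cofactor's synthesis, fell by 0.62; after marker scaling 9 rose and 0 fell. Arg1, the arginase that competes for arginine, spanned 423, 2.59 and 17.4 FPKM under depletion, 13.6 and 1.92 FPKM in the libraries labelled anti-CTLA4 and 2.15 and 86.4 FPKM in IgG, and passed in no comparison (limma adjusted p = 0.435 to 0.917).

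Of 12 genes of itaconate and citrate metabolism around Acod1, all tested, 4 fell and 1 rose in the libraries labelled anti-CTLA4 over IgG. Their median was -0.40, against -0.31 over all 13028 tested genes, of which 3747 fell. Cs, citrate synthase, and Idh1, a cytosolic isocitrate dehydrogenase, fell by 0.88 and 0.96, with limma adjusted p-values of 0.0144 and 0.0159. Slc13a3, a carrier of dicarboxylates, rose by 0.94 (limma adjusted p = 0.0207). Under depletion over the libraries labelled anti-CTLA4 Cs and Idh1 rose by 0.73 and 0.78, and Slc13a3 fell by 0.72. The list's median in that comparison was 0.15, against 0.27 over all 13028 tested genes, of which 2969 rose. With median-of-ratios scaling the list's median was -0.14, with 0 higher and 1 lower. Cs and Idh1 moved in the direction of the tumour and precursor-like markers, of which 20 of 21 fell in the first comparison and 18 rose in the second; their part was not tested.

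Other antimicrobial proteins that were not oxidase parts included 13 tested genes of 18. Of these, 3 rose and 0 fell in the libraries labelled anti-CTLA4 over IgG, with a median of 1.55, and 0 rose after marker scaling. Mpeg1, a pore-forming protein of phagosomes, stood at 295 and 255 FPKM there, against 85.8 and 105 FPKM in IgG, and rose by 1.52 (SE 0.20, limma adjusted p = 0.00936). Slc11a1, which pumps divalent metals out of the phagosome, rose by 1.58 (limma adjusted p = 0.0101) and Gsdmd, the pore former of pyroptosis, by 1.55 (limma adjusted p = 0.00995). All 3 fell under depletion over the libraries labelled anti-CTLA4, by 1.45, 1.08 and 1.10; after marker scaling 0 of the list fell and 2 rose. The list's median there was -0.0036, and -1.08 without replicate 1 of the depletion group, whose S100a8 and S100a9 stood at 227 and 203 FPKM.

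The 20 genes of antioxidant defence and of targets of the factor NRF2 were all tested. In the libraries labelled anti-CTLA4 over IgG, 2 rose and 4 fell, with a median of -0.37. Of all 13028 tested genes 3747 fell there, with a median of -0.31. After marker scaling 0 of the list rose and 14 fell, while 9233 of all tested genes fell. Txnrd1, thioredoxin reductase, fell by 1.57 (SE 0.23, limma adjusted p = 0.00936), to 23.9 and 16.1 FPKM in those libraries, against 59.6 and 61.3 FPKM in IgG. Gclm, a subunit of the glutathione-making ligase, fell by 0.97, while Sod3, the extracellular superoxide dismutase, rose by 1.60 and Nfe2l2, which encodes NRF2 itself, by 1.08 (limma adjusted p = 0.0121, 0.0118 and 0.011). Under depletion over the libraries labelled anti-CTLA4, 7 rose and 2 fell (2 and 2 with median-of-ratios scaling). Of all 13028 tested genes 2969 rose and 858 fell there. Txnrd1 rose by 1.39, Gsr, glutathione reductase, by 1.50, Gclm by 1.04 and Txn1, thioredoxin, by 0.95, again in the direction of the tumour and precursor-like markers. In replicate 1 of the depletion group those markers summed to 243 FPKM, against 819 and 627 FPKM in replicates 2 and 3. Within that group Txnrd1 and Gclm were also lowest in replicate 1. Gsr was highest there, at 50.6 FPKM against 22.3 and 26.5 FPKM, as was Txn1, at 105 FPKM against 89.1 and 93.8 FPKM. The part of the markers was not tested.

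The interferon-gamma and pattern-recognition signals known to lie upstream of the members comprised 16 tested genes, of which 7 rose and 0 fell in the libraries labelled anti-CTLA4 over IgG, with a median of 0.82, while 0 rose and 3 fell after marker scaling. Spi1, which encodes the myeloid factor PU.1, rose by 1.30 (SE 0.22, limma adjusted p = 0.0101), to 131 and 130 FPKM in those libraries, against 47.6 and 57.3 FPKM in IgG. Irf8, an interferon regulatory factor of myeloid cells, rose by 0.93 (SE 0.20, limma adjusted p = 0.0147). The receptor chains Ifngr2 and Ifngr1 rose by 1.19 and 0.92 (limma adjusted p = 0.0115 and 0.0183). Irf1, a factor induced by interferon-gamma that acts on its targets, had 0.31 and did not pass (limma adjusted p = 0.576).

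Irf1 was lower in every CD4 depletion library than in any other library. It stood at 27.0, 72.1 and 31.1 FPKM under depletion, at 108 and 120 FPKM in the libraries labelled anti-CTLA4 and at 103 and 81.1 FPKM in IgG. Under depletion over the libraries labelled anti-CTLA4 it fell by 1.51 (SE 0.39, limma adjusted p = 0.0289), Irf8 by 1.19 (SE 0.18, limma adjusted p = 0.0124) and Spi1 by 0.78 (SE 0.20, limma adjusted p = 0.0283). Of the 16 genes 6 fell and 1 rose there; after marker scaling 1 fell and 3 rose. Over IgG, Irf1 had -1.19 under depletion without overlap, with a limma adjusted p of 0.71. Within the depletion group the order of Irf1 was opposite to that of the oxidase genes, with replicate 1 lowest and replicate 2 highest. Cybb was lowest of the group in replicate 2, at 3.46 FPKM. Whether the ISRE cores in its window bear on its level was not tested.

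The genes most like each member were taken as the 3 with the smallest root mean square difference between centred log2 profiles over the 7 libraries, among 7591 genes with a mean of at least 5 FPKM. For Ncf1 these were Ifngr2 (0.07), Tmem104 (0.07) and Naip2 (0.08). For Cyba they were Fcer1g (0.08), the shared chain of Fc receptors, Rab20 (0.08) and Adap1 (0.09). Rac2 was nearest to Evi2b (0.09), Csf2rb (0.10), the common chain of several cytokine receptors, and Myo1g (0.11), and Ncf4 to Rhbdf2 (0.14), Ucp2 (0.15) and B4galnt1 (0.16). Acod1 was nearest to Il2rg (0.14), the common gamma chain of interleukin receptors, Ifi27l2a (0.19) and Ifi204 (0.20). Cybb was nearest to Ifi207, Cd52 and Bcl2a1d (each 0.21), and Nos2, whose level reached 1 FPKM in 1 library alone, to Mxd1 (0.14), Nabp1 (0.20) and Ppp1r3b (0.29).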

How the data were processed

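RNA sequencing of 7 microglia libraries was deposited as 1 table of FPKM. The submitters' processing notes name STAR, HOMER, DESeq2 and build mm10, without versions. Per the file headers, the authors' FPKM values came from HOMER's count over exons on both strands with 1 entry kept per gene, and the header command lists 40 libraries, 33 without a column. Values were analysed as log2(FPKM + 1), which understates changes of low genes, with limma 3.58.1 in R 4.3.3 (mean-variance trend, 1 fit of 3 groups, two-sided contrasts, Benjamini-Hochberg). Genes reaching 1 FPKM in 2 or more libraries were tested. The test was also run on simulated data with the same spread in every group, few shifted genes and no outlying library. That run cannot show how the test behaves with an outlying library or a shift of most genes. Low values were whole multiples of 1 read within 0.1 reads (transcripts of 200 to 800 nucleotides, up to 20 reads), which gave 84100000 to 107600000 reads per library. No count test was run. Members and gene lists were chosen with earlier results of these data known. Named genes are the members, a fixed panel, up to 4 genes per list and comparison with the smallest adjusted p, and the 3 most alike profiles; some genes that this rule takes are left out. Alternatives covered the pseudocount, filters, scaling, samples fitted, trend, a replicate block and each library left out. Promoters came from RefSeq (GRCm38.p6), found for 4 of 7 members.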

Additional observations from a re-analysis of the deposited data

How the results depend on the processing

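In the libraries labelled anti-CTLA4 over IgG, 3 members passed, and 3 or 2 did with a pseudocount of 0.1 or a mean of at least 5 FPKM, 4 with median-of-ratios or quantile scaling, 1 without a filter, 6 with only the compared groups fitted and 0 scaled to microglia markers. Under depletion over those libraries 2 passed, against 1 with a pseudocount of 0.1, a mean of at least 5 FPKM, no trend or only 2 groups fitted, and 0 without a filter or scaled to microglia markers. With a library left out, the range was 0 to 1 for the first and 0 to 4 for the second. Over IgG, 0 passed under every alternative. The filter of a mean of at least 5 FPKM left Acod1 untested, at a mean of 4.63 FPKM. Under that filter Cyba and Ncf1 still passed in the first comparison and Ncf1 in the second. The cause of the other shifts was not tested.

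The fit with the replicate number as a block gave 1 member for the first comparison and 0 for the second. The labels give no pairing. Same-numbered libraries correlated at -0.21 to 0.12 in their deviations from group means. In a group of 2 libraries the deviations mirror each other, so these values cannot decide whether same-numbered libraries share more than a number. Signs turned after marker scaling for Ncf4 in the first comparison (-0.025) and for Cyba (0.022), Ncf1 (0.12), Ncf4 (0.67) and Rac2 (0.38) in the second, where Ncf4 also ranged from -0.72 to 0.12 with a library left out.

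Over all tested genes, 4957 passed in the first comparison (1210 higher, 3747 lower), with 2132 higher and 2050 lower after median-of-ratios scaling, 1928 and 2081 after quantile scaling, 9276 in all after marker scaling, 2665 with the block and 0 to 3620 with a library left out. In the second, 3827 passed (2969 higher, 858 lower), with 1455 and 1648 after median-of-ratios scaling, 1452 and 1460 after quantile scaling, 9853 after marker scaling, 2477 without a filter, 0 with the block and 0 to 5291 with a library left out. Leaving out an IgG library or one labelled anti-CTLA4 leaves that arm with 1 library, which is then assumed to vary like the others; leaving out a depletion library leaves 2. Depth limits Nos2, whose lowest library holds 4 reads.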
